A study of Mus musculus with 12 samples.

Results

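The genes described here are 31 genes of the MHC class I pathway and of cross-presentation, taken by symbol from a table of 55401 genes. They comprise 8 class I heavy chains, the light chain B2m, the transactivator Nlrc5, 4 genes of peptide transport and loading, 6 of the immunoproteasome and its activators, 2 trimming peptidases, 3 chaperones of the endoplasmic reticulum (ER), 3 translocon subunits and 3 regulators of cross-presentation. All 31 passed the filter on low counts, as did 44624 genes in all. The cells were migratory dendritic cells (DCs) of B6 mice aged 6-8 weeks, isolated from 3 organs, the liver, the duodenum and the pancreas, with no treatment, transgene or mutation named in the labels. The sort took live CD45+ lineage-negative CD11c+ cells with high MHC class II that were CD103+ and CD11b-, the surface phenotype of the conventional type 1 DC (cDC1). PolyA RNA was sequenced in bulk from 4 libraries of each tissue, and each library pooled tissue from 2 mice, so a library is a mean over animals. Levels are given as TPM (transcript abundance scaled for gene length and depth), and differences as log2 differences of counts from edgeR with their standard error (SE).

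MHC class I molecules consist of a heavy chain, B2m and a short peptide. Proteasomes cut cytosolic proteins, the TAP transporter moves the peptides into the ER, and a loading complex of tapasin, calreticulin and the oxidoreductase Pdia3 places them on the heavy chain. The cDC1 is known for cross-presentation, in which peptides of engulfed material reach class I by way of the cytosol or the phagosome, and Nlrc5 is the transactivator of class I genes that works with the RFX complex at their promoters.

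Promoters of class I genes share a compact stretch upstream of the start, and the stretches of 6 members are shown because these genes span the results, from the large differences of H2-Q6 to the small ones of H2-M3 and H2-T23. They are RefSeq sequences of build GRCm38.p6, 5′ to 3′ on the gene's strand and upstream of its annotated start; 27 of the 31 genes matched an entry, and Nlrc5, Tap2, Tapbpl and Sec61a1 did not. Capitals mark exact matches, on either strand, to GGGGATTCCC or GGGACTTTCC (kappaB letters), GAAGTGAAAC or GAAANNGAAA (interferon-response letters), TGACG (the core of the X2 box) and ATTGG (the Y box, an inverted CCAAT).
H2-K1, chr17:34000354-34000463 (- strand): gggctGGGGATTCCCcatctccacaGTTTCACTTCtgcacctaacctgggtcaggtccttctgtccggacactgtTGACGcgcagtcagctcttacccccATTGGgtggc
H2-Q4, chr17:35379458-35379571 (+ strand): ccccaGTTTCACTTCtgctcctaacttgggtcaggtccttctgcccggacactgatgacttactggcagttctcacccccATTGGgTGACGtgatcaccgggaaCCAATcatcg
H2-Q6, chr17:35424672-35424804 (+ strand): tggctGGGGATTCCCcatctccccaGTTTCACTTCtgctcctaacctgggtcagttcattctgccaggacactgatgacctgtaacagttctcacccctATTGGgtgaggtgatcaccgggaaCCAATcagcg
H2-M3, chr17:37270100-37270222 (+ strand): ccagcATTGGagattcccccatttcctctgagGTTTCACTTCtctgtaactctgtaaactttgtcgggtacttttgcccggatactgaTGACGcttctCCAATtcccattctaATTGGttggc
H2-T23, chr17:36032744-36032830 (- strand): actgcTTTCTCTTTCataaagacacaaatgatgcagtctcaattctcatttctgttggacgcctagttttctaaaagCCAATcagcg
B2m, chr2:122147543-122147643 (+ strand): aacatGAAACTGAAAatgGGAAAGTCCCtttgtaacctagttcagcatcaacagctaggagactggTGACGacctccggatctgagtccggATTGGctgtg
Among the 32851 RefSeq promoter windows of the same length, 0.0852% held GGGGATTCCC, which was present in H2-K1, H2-D1, H2-Q6 and H2-Q7, and 0.14% held GGGACTTTCC, present in B2m. GAAGTGAAAC occurred in 0.11% of windows and in H2-K1, H2-D1, H2-Q4, H2-Q6, H2-Q7 and H2-M3. GAAANNGAAA occurred in 2.98% of windows and in H2-T22, H2-T23, B2m and Cybb. The short letters were common, with TGACG in 17.8% of windows and 13 of the 27 members, and ATTGG in 33.8% of windows and 20 of the 27. In the stretches shown, no kappaB match shares letters with another match. Elsewhere matches to these motifs can share letters, as GAAANNGAAA can with GAAGTGAAAC. These are descriptions of letters, chosen with the expression values known, and a match need not be the box it is named after. In H2-Q4 the marked TGACG stands shortly after the first ATTGG, whereas in H2-K1 it stands before ATTGG.

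Library totals ranged from 220897606 to 356072585 estimated counts. These are rescaled TPM and not tallies of reads: over the 12632 genes with at least 1 TPM in every library, each count equalled the TPM times 1 constant for the gene and 1 for the library, within 0.01%. The 10 cDC1 markers were all detected in every library, among them Xcr1 at 77.4 TPM or more and Clec9a at 131 TPM or more. They did not all stand at 1 level. Cadm1 was at 45.4 to 73.9 TPM in duodenum and 96.7 to 129.7 TPM in the other 8 libraries, and Naaa at 322 to 479 TPM in duodenum and 572 to 704 TPM in the other 8 libraries, both lower in duodenum, whereas Itgae was at 112 to 167 TPM in duodenum and 73.2 to 106 TPM in the other 8 libraries. RNA of other cells differed between the tissues. The 12 plasma cell markers summed to 219 to 731 CPM in liver, 8505 to 12463 CPM in duodenum and 250.1 to 1112 CPM in pancreas (counts scaled to library size), with liver 2, pancreas 3 and pancreas 4 above the other libraries of their tissues. Pancreatic acinar markers summed to 5.32 to 6.81 CPM in liver, 5.96 to 19.3 CPM in duodenum and 1176 to 5964 CPM in pancreas. The 7 markers of CD11b+ DCs (cDC2) summed to 6.68 to 12.3 CPM in liver, 32.9 to 54.1 CPM in duodenum and 9.51 to 14.3 CPM in pancreas, and 10 immediate-early and stress genes to 664 to 815 CPM in liver, 4340.0 to 6025 CPM in duodenum and 696 to 1299 CPM in pancreas. Plasmacytoid DC markers summed to 177 to 255 CPM in duodenum and 103 to 155 CPM elsewhere, and B cell markers to 22.4 to 27.8 CPM in duodenum and 10.02 to 21.2 CPM elsewhere. The sums of these lists other than the acinar one were higher in every duodenum library than in any other, and those of hepatocyte markers (41.8 to 52.02 CPM in duodenum and 170.0 to 453 CPM elsewhere) and of macrophage and monocyte markers were lower. Of the 10 hepatocyte markers only Trf lay apart from both other tissues, at 15.6 to 21.6 TPM in duodenum and 64.4 to 204 TPM elsewhere. The other 9 overlapped, and 8 of the 10 were under 1 TPM in every pancreas library, though the sum was highest there. All these sums cannot be told apart from tissue in any comparison with duodenum. Their part in the differences below was not tested. In bulk libraries, fewer cells of a kind and less RNA per cell cannot be told apart either.

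Against duodenum, the transactivator Nlrc5, the light chain B2m and most heavy chains (6 of 8 in liver, 5 of 8 in pancreas) were more abundant in both other tissues. The genes of peptide transport, loading, trimming and the immunoproteasome were not called, which does not show that they were unchanged: in simulated data for liver against duodenum (42824 genes) the test recovered 4 of 100 log2 changes of 0.5 and 48 of 100 of 1.0. No other genes were changed there, so the adjusted threshold was stricter than in the real data. These recoveries are therefore not the power of the real tests. The chaperone Calr and the oxidase subunit Cybb were lower in both liver and pancreas, Sec61g was lower in liver, and Canx, Pdia3 and Sec61a1 were lower in pancreas. Of the 31 genes, 8 were higher and 3 lower in liver than in duodenum at an adjusted p under 0.05, where 7.32% of all genes tested were called, 3.37% as higher in liver and 3.95% as higher in duodenum. In pancreas 7 were higher and 5 lower than in duodenum, where 7.70% of all genes were called, 3.76% and 3.94% by direction. The called shares of the 31 genes were 35.5% in the liver and 38.7% in the pancreas comparison. Most of the 31 genes are abundant, and abundant genes were called more often. Among the 6620 genes with a mean of at least 10 TPM, a limit chosen after seeing the data, 21.8% passed in the liver comparison, 6.78% as higher in liver and 15.0% as higher in duodenum. For pancreas the share was 22.1%, with 8.22% higher in pancreas and 13.9% higher in duodenum. Of the 30 members above that level, 26.7% were higher in liver and 23.3% in pancreas, above these backgrounds, while 6.67% and 13.3% were higher in duodenum, which is at or below them. In TPM, 13 members were higher in every liver than in every duodenum library and 4 the reverse, beside 11.2% and 4.48% of all genes tested. For pancreas these counts were 7 and 11, beside 8.21% and 5.34%. TPM are not scaled between libraries as the edgeR differences are, so these counts rest in part on scaling. The 13 included H2-M3, Psmb9 and Psme1, whose log2 differences in edgeR were 0.07, -0.00 and 0.04. Shares among abundant genes were not computed for these counts. The median log2 difference of the 31 genes was -0.00 for liver and -0.17 for pancreas against duodenum, beside 0.10 and 0.09 over all genes tested. With the size factors of DESeq2 in place of the TMM factors of edgeR the split was 6 higher and 4 lower in liver, and 4 higher and 7 lower in pancreas. With scaling that left out acinar, plasma cell, B cell and immunoglobulin genes and the most abundant feature, it was 5 higher and 7 lower in pancreas. Single libraries weighed on these counts. Without duodenum 2, the members lower than in duodenum numbered 8 for liver and 11 for pancreas. In pancreas 7 members were called in all without duodenum 1, 2 were lower without duodenum 1, 3 or 4 or pancreas 1, 3 were lower without pancreas 4, and 4 were higher without pancreas 3. Without liver 2, pancreas 3 and pancreas 4, the libraries with more plasma cell RNA within their tissues, 6 were higher and 2 lower in liver, and 3 higher and 3 lower in pancreas.

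**Figure D1:**
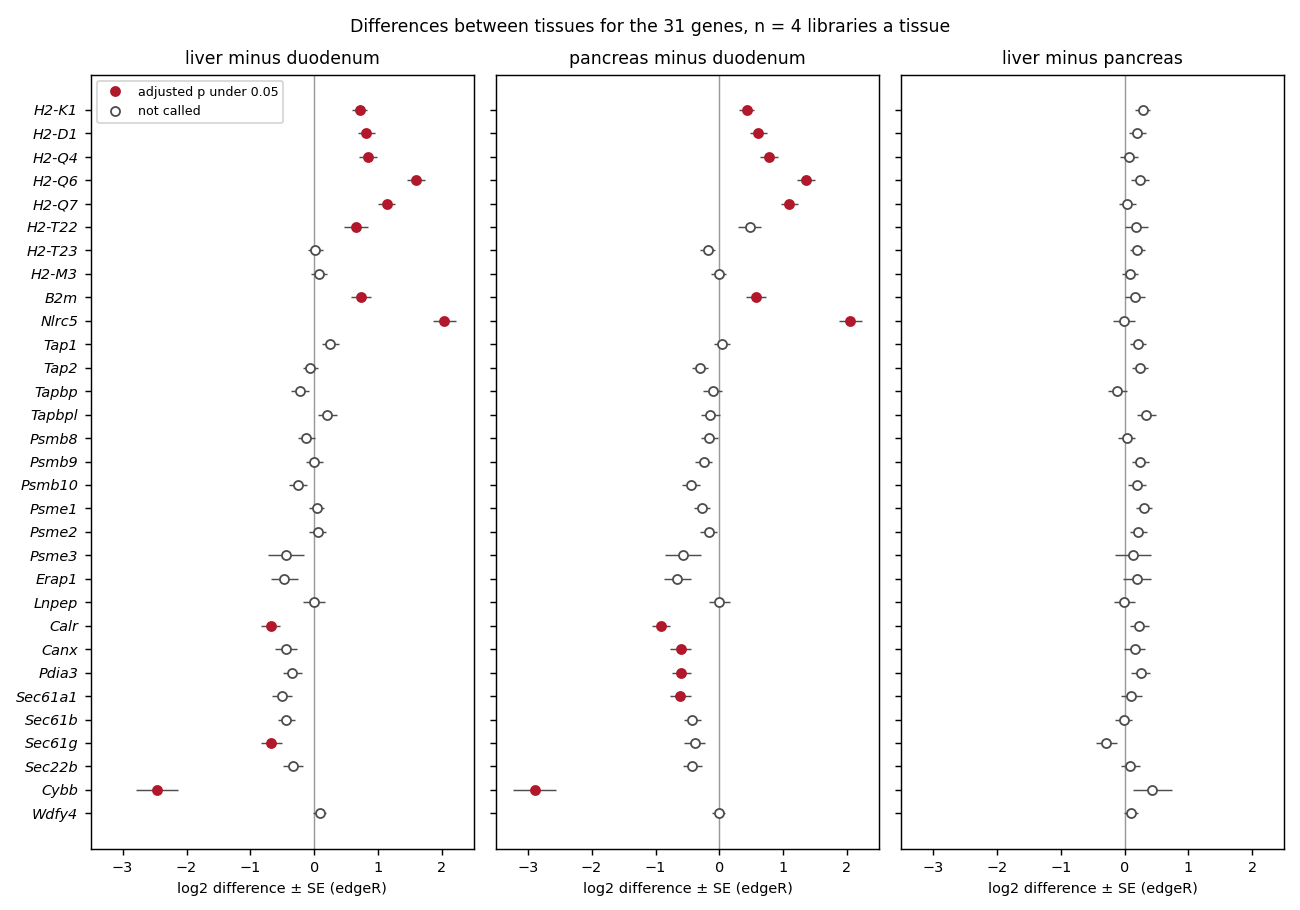
Log2 difference of each of the 31 genes (rows) between tissues, with positive values higher in the tissue named first; bars are SE from edgeR and filled points had an adjusted p under 0.05. Nlrc5 stands at 2.03 and 2.05 and Cybb at -2.46 and -2.89 in the comparisons with duodenum, and no point is filled between liver and pancreas.

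Nlrc5 (ENSMUSG00000074151), an NLR protein that moves to the nucleus and drives class I transcription, was the member with the largest rise. It was measured at 94.9, 102, 87.04 and 88.6 TPM in liver libraries 1 to 4, 20.9, 18.1, 19.5 and 22.5 TPM in duodenum and 72.2, 76.4, 111 and 89.8 TPM in pancreas. Every duodenum library was below every liver and pancreas library, and the liver and pancreas values overlapped. The log2 difference from duodenum was 2.03 ± 0.18 (SE, adjusted p = 8.67e-06) in liver and 2.05 ± 0.18 (SE, adjusted p = 4.85e-06) in pancreas, 4.097-fold and 4.14-fold. It was called under all 24 alternative settings in both comparisons. Between liver and pancreas it differed by -0.02 ± 0.17 (SE, adjusted p = 0.999).

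The classical heavy chain H2-K1 (ENSMUSG00000061232) was, after B2m, the most abundant of the 31 genes. Its levels were 1682, 1731, 1537 and 1615 TPM in liver libraries 1 to 4, 924, 814, 944 and 890.4 TPM in duodenum and 1160.2, 1232, 1367 and 1284 TPM in pancreas. The tissues did not overlap, with liver highest and duodenum lowest. The difference was 0.71 ± 0.12 (SE, adjusted p = 0.00174) for liver and 0.43 ± 0.12 (SE, adjusted p = 0.0377) for pancreas against duodenum. The pancreas call held in 6 of 24 alternatives and was lost on leaving out any single library except pancreas 1.

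H2-D1, the other classical heavy chain of these mice, was measured at 1543, 1559.9, 1464 and 1503 TPM in liver libraries 1 to 4, 795, 611, 866 and 799 TPM in duodenum and 1188, 1269, 1298 and 1182 TPM in pancreas. It followed the same order, liver above pancreas above duodenum, with no overlap. Against duodenum it was higher by 0.81 ± 0.13 (SE, adjusted p = 0.00168) in liver and by 0.61 ± 0.13 (SE, adjusted p = 0.0106) in pancreas. The pancreas call was lost without pancreas 3 (adjusted p = 0.0641), without liver 2, pancreas 3 and pancreas 4 (0.218), and with DESeq2 size factors (0.0745, all edgeR). Between liver and pancreas neither H2-K1 (0.28 ± 0.12, adjusted p = 0.458) nor H2-D1 (0.20 ± 0.13, adjusted p = 0.792) was called.

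H2-Q6 and H2-Q7 encode Qa-2 antigens, non-classical class I molecules that can be anchored in the membrane by lipid. H2-Q6 stood at 133, 128, 103 and 113 TPM in liver libraries 1 to 4, 37.7, 32.8, 34.01 and 36.3 TPM in duodenum and 79.5, 103, 101 and 93.1 TPM in pancreas, and each duodenum library was below every other library. It showed the largest difference of the 8 heavy chains, 1.59 ± 0.14 (SE, adjusted p = 1.09e-05) in liver and 1.35 ± 0.14 (SE, adjusted p = 2.87e-05) in pancreas. H2-Q7 stood at 149, 159, 135 and 171 TPM in liver libraries 1 to 4, 57.5, 60.1, 60.97 and 69.9 TPM in duodenum and 123, 137, 149 and 148 TPM in pancreas, with liver and pancreas overlapping and both above duodenum. Its difference was 1.14 ± 0.14 (SE, adjusted p = 0.000112) in liver and 1.10 ± 0.14 (SE, adjusted p = 0.0001198) in pancreas, and both genes were called under all 24 alternatives in both comparisons.

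H2-Q4, another non-classical gene of the Q region, was present at a low level. Its values were 12.5, 14.3, 13.9 and 15.6 TPM in liver libraries 1 to 4, 7.29, 6.89, 6.25 and 7.71 TPM in duodenum and 13.6, 11.2, 12.8 and 12.9 TPM in pancreas. Both tissues lay above duodenum without overlap, by 0.84 ± 0.14 (SE, adjusted p = 0.00188) in liver and 0.77 ± 0.14 (SE, adjusted p = 0.00297) in pancreas. The pancreas call was lost without liver 2, pancreas 3 and pancreas 4 (adjusted p = 0.117). H2-T22, whose product is a ligand of some gamma-delta T cell receptors, was measured at 66.3, 58.9, 57.4 and 66.4 TPM in liver libraries 1 to 4, 27.7, 32.02, 46.6 and 34.4 TPM in duodenum and 39.9, 60.6, 49.9 and 54.1 TPM in pancreas. Liver was above duodenum in every library and pancreas overlapped with it. The liver difference was 0.66 ± 0.18 (SE, adjusted p = 0.0432) and held in 10 of 24 alternatives, being lost without any 1 of the liver libraries, of duodenum 1, 2 or 4, or of pancreas 3 or 4. The pancreas difference was 0.47 ± 0.18 (SE, adjusted p = 0.155).

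The remaining heavy chains were not called. H2-T23 encodes Qa-1, which presents leader peptides of other class I molecules to receptors of natural killer cells. It was measured at 305, 308, 246 and 283 TPM in liver libraries 1 to 4, 241, 250.1, 282 and 235 TPM in duodenum and 219.5, 219, 220.1 and 273 TPM in pancreas, and the tissues overlapped. Its difference was 0.01 ± 0.12 (SE, adjusted p = 0.973) for liver and -0.18 ± 0.12 (SE, adjusted p = 0.451) for pancreas against duodenum. H2-M3, which presents peptides that begin with formylmethionine, lay between 51.4 and 74.4 TPM in the 12 libraries. Its difference was 0.07 ± 0.12 (SE, adjusted p = 0.842) and -0.01 ± 0.12 (SE, adjusted p = 0.978). The promoter of H2-M3 printed above holds the GAAGTGAAAC letters that also stand in H2-K1, H2-Q4 and H2-Q6, and the promoter of H2-T23 holds GAAANNGAAA and a single Y box match.

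**Figure D2:**
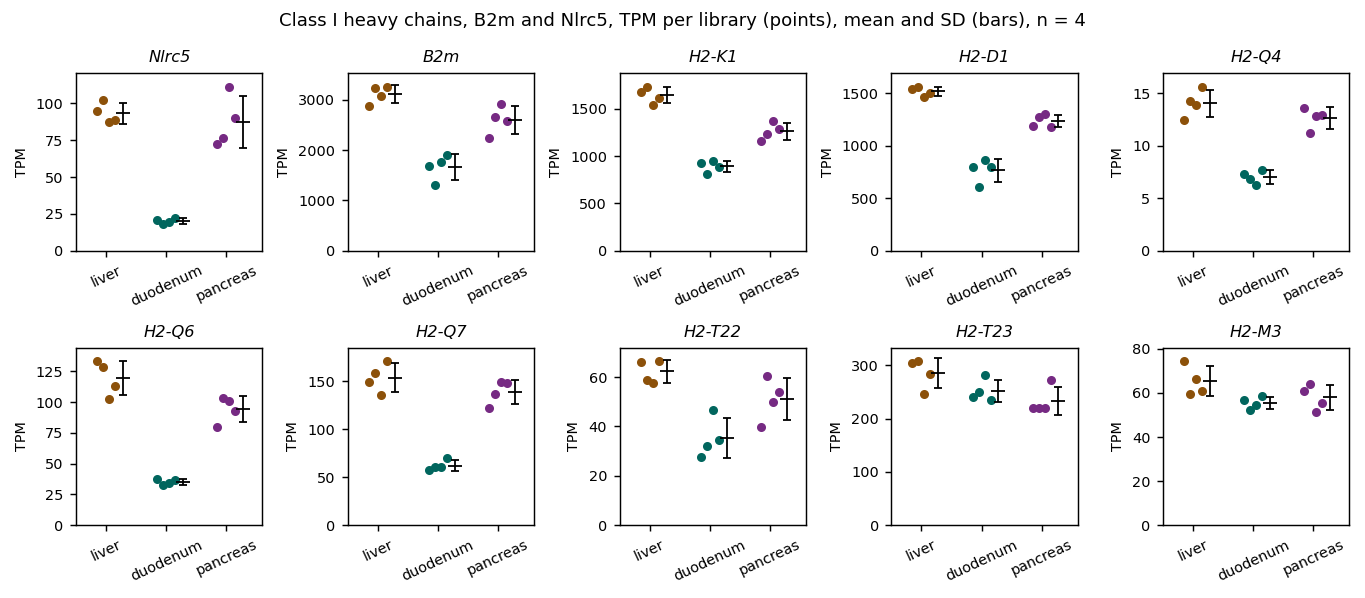
TPM of Nlrc5, B2m and the 8 heavy chains in each library (points) by tissue, with mean and SD (bars, n = 4), each panel on its own axis from 0. In Nlrc5, B2m, H2-K1, H2-D1, H2-Q4, H2-Q6 and H2-Q7 all duodenum points lie below all liver and pancreas points, and in H2-T23 the tissues overlap.

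B2m, the light chain common to all class I molecules, was the most abundant member. It was measured at 2869, 3242, 3084 and 3255 TPM in liver libraries 1 to 4, 1681, 1298, 1759.6 and 1912 TPM in duodenum and 2250.1, 2663, 2913 and 2574 TPM in pancreas. Duodenum was below both tissues in every library, by 0.73 ± 0.16 (SE, adjusted p = 0.0109) for liver and 0.58 ± 0.16 (SE, adjusted p = 0.0399) for pancreas. The liver call held in 22 of 24 alternatives and was lost with DESeq2 size factors (adjusted p = 0.0556) and without liver 2, pancreas 3 and pancreas 4 (adjusted p = 0.0674). The pancreas call held in 8 of 24 alternatives and was lost without any single library except duodenum 4 and pancreas 1. The 8 heavy chains together reached 3859 ± 176 TPM in liver (SD, n = 4), 2108 ± 182 in duodenum and 3082 ± 149.9 in pancreas. Per TPM of B2m this was 1.24 ± 0.0973 in liver, 1.28 ± 0.1305 in duodenum and 1.19 ± 0.0708 in pancreas. The ranges of this ratio overlapped among the tissues. H2-K1 and H2-D1 made up 81.9 ± 0.677%, 78.7 ± 1.47% and 80.9 ± 1.08% of the heavy chain sum in liver, duodenum and pancreas.

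Class I heavy chains resemble each other, so reads can be shared between them. Of the 31-base stretches of their GENCODE transcripts, 20.3% of those of H2-K1, 27.9% of H2-D1, 58.4% of H2-Q4, 51.8% of H2-Q6, 48.1% of H2-Q7 and 62.1% of H2-T22 also occurred in another gene. The split of counts among the Q genes, and between H2-T22 and H2-T10, is uncertain for that reason. B2m shared none of its stretches and Nlrc5 0.163%.

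Among the 14 other class I and class I-like heavy chains tested, 6 were higher and none lower in liver than in duodenum, and 3 were higher and 1 lower in pancreas. These were 42.9% higher in liver, and 21.4% higher and 7.14% lower in pancreas. Of all genes tested, 3.37% were called as higher in liver, and 3.76% as higher and 3.94% as lower in pancreas. With a mean of at least 10 TPM these were 6.78%, 8.22% and 13.9%, so the share lower in pancreas is not above the background of abundant genes. Hfe, a B2m partner that governs iron uptake, was at 194 ± 16.6 TPM in liver (SD, n = 4), 41.5 ± 2.17 in duodenum and 96.6 ± 21.9 in pancreas. It differed from duodenum by 2.07 ± 0.18 (SE, adjusted p = 9.05e-06) in liver and 1.17 ± 0.18 (SE, adjusted p = 0.0007699) in pancreas, and between liver and pancreas by 0.90 ± 0.18 (SE, adjusted p = 0.0215). Fcgrt, the neonatal Fc receptor, was higher by 1.56 ± 0.14 (SE, adjusted p = 9.09e-06) and 1.55 ± 0.14 (SE, adjusted p = 5.80e-06). Cd1d1, which presents lipids, was higher in liver (0.98 ± 0.19, adjusted p = 0.005596) and lower in pancreas (-0.71 ± 0.19, adjusted p = 0.0343) than in duodenum. H2-Q10, which encodes a secreted class I molecule, was higher in liver by 0.63 ± 0.17 (SE, adjusted p = 0.0379). The median log2 difference of the 14 genes was 0.47 for liver and 0.45 for pancreas against duodenum, beside 0.10 and 0.09 over all genes tested.

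Few of the other factors of class I promoters were called. The RFX subunits Rfx5, Rfxank and Rfxap were not called in any comparison, with differences from duodenum of -0.13 ± 0.20, -0.25 ± 0.20 and -0.37 ± 0.26 in liver and -0.41 ± 0.20, 0.10 ± 0.20 and -0.45 ± 0.26 in pancreas. Of 18 transcription factors, 2 were higher in liver than in duodenum and none lower, and in pancreas none was higher and 2 were lower (Irf1 and Atf1). Each of these counts is 11.1% of the list, beside 3.37% of all genes tested called as higher in liver and 3.94% as lower in pancreas (6.78% and 13.9% among genes with a mean of at least 10 TPM), so neither stands far from the background. The medians of the 18 were -0.09 for liver and -0.12 for pancreas. Irf7, an amplifier of type I interferon, was among those higher in liver, where it differed from duodenum by 1.72 ± 0.32 (SE, adjusted p = 0.00421). In pancreas its difference was 0.49 ± 0.32 (SE, adjusted p = 0.467).
Irf1, an interferon-induced activator that binds the interferon-response letters of class I promoters, stood at 73.1, 75.5, 63.8 and 70.01 TPM in liver libraries 1 to 4, 59.6, 45.2, 49.6 and 53.5 TPM in duodenum and 30.03, 28.4, 42.6 and 32.1 TPM in pancreas. It was lowest in pancreas, in which it differed from duodenum by -0.70 ± 0.17 (SE, adjusted p = 0.01905) and from liver by 0.98 ± 0.17 (SE, adjusted p = 0.00957) as liver minus pancreas. Irf2 was not called (0.12 ± 0.11 and -0.01 ± 0.11).

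None of the 4 genes of peptide transport and loading was called in any comparison by edgeR with TMM scaling. Tap1, a subunit of the peptide transporter, was measured at 155, 162, 152 and 156 TPM in liver libraries 1 to 4, 113, 114, 121 and 119.9 TPM in duodenum and 112, 151, 128 and 114 TPM in pancreas. Liver was above duodenum in every library, yet the difference was 0.25 ± 0.13 (SE, adjusted p = 0.33). It was called with library totals (0.41, adjusted p = 0.00654) and with limma on log2(TPM + 1) and log2(TPM + 0.1), 3 of 24 alternatives. For its partner Tap2 the range was 141 to 163 TPM in liver, 126 to 152 in duodenum and 115 to 128 in pancreas, and the differences from duodenum were -0.06 ± 0.12 and -0.30 ± 0.12, the latter called as lower in 3 of 24 alternatives. Tapbp (tapasin), which bridges TAP and the heavy chain, differed by -0.22 ± 0.15 and -0.11 ± 0.15, with the liver difference called as lower in 1 of 24. Tapbpl, a tapasin relative that edits peptides outside the loading complex, differed by 0.20 ± 0.15 and -0.14 ± 0.15. The highest log2 difference from duodenum among the 4 genes was thus that of Tap1 in liver, 0.25, beside 0.71 for H2-K1.

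The immunoproteasome subunits Psmb8, Psmb9 and Psmb10 replace the constitutive catalytic subunits Psmb5, Psmb6 and Psmb7 and change the cuts that are made. Psmb8 was measured at 813, 832, 869 and 848 TPM in liver libraries 1 to 4, 854, 702, 903 and 808 TPM in duodenum and 725, 828, 818 and 704 TPM in pancreas. Values of the tissues overlapped, with differences from duodenum of -0.12 ± 0.13 (SE, adjusted p = 0.723) and -0.16 ± 0.13 (SE, adjusted p = 0.619). Psmb9 ranged over 590.4 to 683 TPM in liver, 566 to 588 in duodenum and 425 to 561 in pancreas, and its differences were -0.00 ± 0.14 (SE, adjusted p = 1.00) and -0.25 ± 0.14 (SE, adjusted p = 0.366). Psmb10 was at 105, 112, 105 and 99.2 TPM in liver libraries 1 to 4, 105, 128, 108 and 108 TPM in duodenum and 75.99, 74.9, 98.1 and 93.8 TPM in pancreas, lower in each pancreas than in each duodenum library. The difference of -0.45 ± 0.14 (SE, adjusted p = 0.0708) did not pass the threshold, but did so in 9 of 24 alternatives. None of the 3 was called in any comparison, nor were the activator subunits Psme1 (0.04 ± 0.12 and -0.27 ± 0.12 in liver and pancreas), Psme2 (0.05 ± 0.14 and -0.17 ± 0.14) and Psme3 (-0.44 ± 0.28 and -0.57 ± 0.28). Psme2 shared 62.6% of its 31-base stretches with its copy Psme2b.

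Of the constitutive subunits, Psmb5 and Psmb7 had lower levels in both other tissues than in duodenum. Psmb5 was at 192, 193, 199 and 209 TPM in liver libraries 1 to 4, 229, 259.6, 262 and 236 TPM in duodenum and 148, 149.5, 153 and 158 TPM in pancreas, the 3 tissues being separate. It differed from duodenum by -0.47 ± 0.11 (SE, adjusted p = 0.0152) in liver and -0.76 ± 0.11 (SE, adjusted p = 0.000434) in pancreas. Psmb7 was lower, with differences of -0.79 ± 0.15 (SE, adjusted p = 0.00491) and -0.61 ± 0.15 (SE, adjusted p = 0.0228), and Psmb6 was not called (-0.45 ± 0.14 and -0.27 ± 0.14). The ratio of an immunoproteasome subunit to the subunit it replaces does not depend on how libraries are scaled. Psmb8 per Psmb5 was 4.24, 4.301, 4.37 and 4.05 in liver, 3.73, 2.704, 3.45 and 3.43 in duodenum and 4.88, 5.54, 5.36 and 4.46 in pancreas. Each pancreas library was above each liver library, and each liver library above each duodenum library. The fold was 1.28 for liver and 1.53 for pancreas over duodenum.
Psmb9 per Psmb6 was 2.46, 2.55, 2.61 and 2.72 in liver, 1.94, 1.95, 1.81 and 1.91 in duodenum and 1.74, 1.91, 1.896 and 2.22 in pancreas, higher in every liver library than in any other. Liver exceeded duodenum 1.36-fold and pancreas 1.34-fold. Psmb10 per Psmb7 was 1.79, 1.89, 1.65 and 1.59 in liver, 1.22, 1.38, 1.08 and 1.101 in duodenum and 1.37, 1.23, 1.28 and 1.44 in pancreas, again highest in liver, 1.45-fold over duodenum and 1.298-fold over pancreas. Tested by exact permutation of libraries (two-sided, on log2 ratios), 7 of 9 comparisons had p = 0.0286, the smallest that 4 against 4 libraries allow, and 0.0367 after Benjamini-Hochberg adjustment over the 9. Pancreas and duodenum did not differ past the threshold in Psmb9 per Psmb6 (exact permutation p = 0.83, adjusted 0.83) or Psmb10 per Psmb7 (exact permutation p = 0.143, adjusted 0.161). Psmb5 shared 71.7% of its 31-base stretches with other genes, most of them with Gm3375, and Psmb7 33.5%, so the size of these ratios is less certain than their spread over libraries shows.

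**Figure D3:**
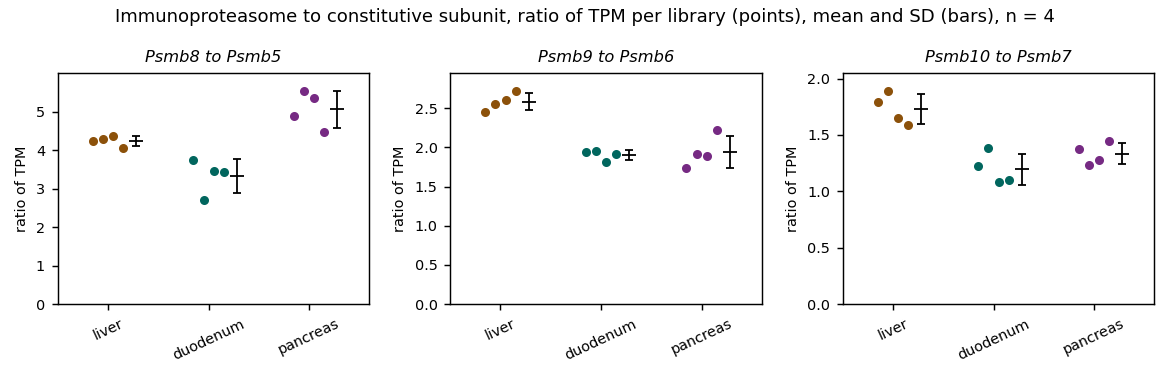
Ratio of the TPM of each immunoproteasome subunit to that of the constitutive subunit it replaces, in each library (points), with mean and SD (bars, n = 4), on axes from 0. Psmb8 per Psmb5 is 3.33 ± 0.44 in duodenum, 4.24 ± 0.14 in liver and 5.06 ± 0.49 in pancreas, whereas the other ratios are highest in liver.

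Peptide trimming genes were low and not called. Erap1, the ER aminopeptidase that shortens peptides to class I length, was measured at 14.7, 13.5, 9.0 and 8.67 TPM in liver libraries 1 to 4, 14.8, 15.01, 13.99 and 12.7 TPM in duodenum and 7.08, 12.1, 10.4 and 7.48 TPM in pancreas. It was lower in each pancreas than in each duodenum library, yet the difference was -0.66 ± 0.21 (SE, adjusted p = 0.0824), and in liver -0.47 ± 0.21 (SE, adjusted p = 0.249). Lnpep, which trims peptides in endosomes, ranged over 14.1 to 19.98 TPM in liver, 12.1 to 20.1 in duodenum and 15.6 to 17.2 in pancreas.

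Chaperones that fold and load class I were lower in pancreas than in duodenum, 3 of 3, and calreticulin was lower in liver as well. Calr (ENSMUSG00000003814), the lectin of the loading complex, was at 169.8, 204, 195 and 148 TPM in liver libraries 1 to 4, 245, 249.9, 253 and 281 TPM in duodenum and 126, 141, 149.6 and 155 TPM in pancreas. Every duodenum library was above every other, and liver and pancreas overlapped at their edges. The log2 difference was -0.68 ± 0.15 (SE, adjusted p = 0.00994) in liver and -0.91 ± 0.15 (SE, adjusted p = 0.00116) in pancreas, held under all 24 alternatives. Canx, the membrane lectin that folds new heavy chains, was at 299, 260.2, 267 and 229 TPM in liver libraries 1 to 4, 306, 235, 366 and 368 TPM in duodenum and 207, 230.4, 231 and 215 TPM in pancreas, with duodenum 2 inside the liver range. It was lower in pancreas, with a difference of -0.61 ± 0.17 (SE, adjusted p = 0.0394), and liver gave -0.44 ± 0.17 (SE, adjusted p = 0.142). Pdia3, the disulfide isomerase bound to tapasin, was at 308, 305, 292 and 252 TPM in liver libraries 1 to 4, 333, 262, 366 and 346 TPM in duodenum and 207, 264, 223 and 216 TPM in pancreas. Duodenum 2 lay inside the pancreas range. Pdia3 too was lower in pancreas, at -0.60 ± 0.15 (SE, adjusted p = 0.0241), and liver gave -0.34 ± 0.15 (SE, adjusted p = 0.219). The Canx call held in 15 and the Pdia3 call in 17 of 24 alternatives; both were lost without duodenum 1, 3 or 4 or without pancreas 1 or 4, and Canx also without pancreas 2.

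The Sec61 complex is the channel by which proteins enter the ER, and it has been proposed as a way for engulfed antigen to leave compartments. Its pore subunit Sec61a1 was measured at 89.4, 72.8, 76.8 and 66.5 TPM in liver libraries 1 to 4, 95.5, 72.2, 108 and 109 TPM in duodenum and 66.2, 70.7, 60.7 and 69 TPM in pancreas. Pancreas was lower than duodenum in every library (-0.61 ± 0.16, adjusted p = 0.0293), while liver overlapped (-0.50 ± 0.16, adjusted p = 0.0761). The pancreas call held in 14 of 24 alternatives and was lost without any 1 of the pancreas libraries or of duodenum 1, 3 or 4. Sec61g was at 36.1, 40.2, 49.4 and 42.2 TPM in liver libraries 1 to 4, 64.1, 55.3, 54.5 and 65.4 TPM in duodenum and 43.3, 52.7, 49.3 and 47.1 TPM in pancreas, highest in duodenum in every library. It was lower in liver, at -0.67 ± 0.17 (SE, adjusted p = 0.0231), a call lost without liver 1, liver 2, duodenum 1 or duodenum 4, and pancreas gave -0.38 ± 0.17 (SE, adjusted p = 0.213). Sec61b, the small tail-anchored subunit, was also lower in each liver and pancreas library than in each duodenum library, at 453 to 525, 408 to 526 and 529 to 662 TPM. Its differences of -0.44 ± 0.13 (SE, adjusted p = 0.0588) and -0.42 ± 0.13 (SE, adjusted p = 0.0667) did not pass, but did so in 10 and 11 of 24 alternatives.

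Other ER genes were called in the same direction. Against duodenum, 6 of the 10 folding genes tested were lower in liver and 7 in pancreas, with none higher. Hspa5 (BiP), the major ER chaperone, differed by -0.74 ± 0.15 (SE, adjusted p = 0.00594) in liver and -1.17 ± 0.15 (SE, adjusted p = 0.000154) in pancreas, and Sdf2l1, its cofactor, by -0.68 ± 0.14 (SE, adjusted p = 0.00915) and -1.20 ± 0.15 (SE, adjusted p = 0.000106). Of 15 genes of translocation and retrotranslocation, 5 were lower in liver and 6 in pancreas and none higher (the list's Derl3 is also among the plasma cell markers), led by Herpud1, a gene of ER-associated degradation, at -1.83 ± 0.17 (SE, adjusted p = 1.22e-05) and -1.84 ± 0.17 (SE, adjusted p = 7.07e-06). The lower genes were 60% and 70% of the folding list and 33.3% and 40% of the translocation list in liver and pancreas. Of all genes tested, 3.95% and 3.94% were called as lower than in duodenum, and 15.0% and 13.9% of those with a mean of at least 10 TPM. The medians were -0.55 and -0.81 for the folding genes and -0.35 and -0.41 for the translocation genes in liver and pancreas, beside 0.10 and 0.09 over all genes tested. The 12 plasma cell markers summed to 8505 to 12463 CPM in duodenum and to no more than 1112 CPM in any other library, with Igha, Sdc1, Tnfrsf17 and Prdm1 under 1 TPM in liver, Sdc1, Tnfrsf17 and Prdm1 in pancreas and Prdm1 in duodenum. The sum moved with the ER genes, and its part in them was not tested. Without liver 2, pancreas 3 and pancreas 4, which held the most of this RNA in their tissues, Calr was called in both comparisons, while the calls of Sec61g in liver and of Canx, Pdia3 and Sec61a1 in pancreas were lost. Leaving these libraries out widens the gap in plasma cell RNA to duodenum.

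Cybb (gp91phox, ENSMUSG00000015340), the catalytic subunit of the phagosomal NADPH oxidase that slows antigen breakdown in phagosomes, was low in abundance and gave the largest difference of all 31 genes. It was measured at 2.36, 1.51, 1.14 and 2.45 TPM in liver libraries 1 to 4, 7.18, 4.46, 12.3 and 11.9 TPM in duodenum and 1.26, 1.35, 1.13 and 1.41 TPM in pancreas. Each duodenum library was above each liver and pancreas library, although the 4 duodenum values spread from 4.46 to 12.3 TPM. The difference was -2.46 ± 0.33 (SE, adjusted p = 0.000272) in liver and -2.89 ± 0.33 (SE, adjusted p = 6.01e-05) in pancreas, called under all 24 alternatives in both.
The other 8 oxidase genes did not all move this way. In liver 1 was higher and 2 lower than in duodenum, and in pancreas 2 were higher and 3 lower. These were 12.5% and 25% of the 8 in liver, and 25% and 37.5% in pancreas. Of all genes tested, 3.37% and 3.95% were called as higher and lower in liver, and 3.76% and 3.94% in pancreas. With a mean of at least 10 TPM the shares were 6.78% and 15.0%, and 8.22% and 13.9%. Hvcn1, the proton channel that supports the oxidase, was lower, with differences of -3.08 ± 0.41 (SE, adjusted p = 0.000265) in liver and -1.31 ± 0.38 (SE, adjusted p = 0.0499) in pancreas, and Rac2, the small GTPase of the complex, likewise, at -0.75 ± 0.19 (SE, adjusted p = 0.0243) and -1.25 ± 0.19 (SE, adjusted p = 0.000703). Ncf4 (p40phox), a cytosolic subunit, was higher by 0.60 ± 0.12 (SE, adjusted p = 0.00831) and 0.50 ± 0.12 (SE, adjusted p = 0.0215).
Myeloid cells other than cDC1 also make Cybb. The 12 macrophage and monocyte markers summed to 404 to 533 CPM in liver, 268 to 402 CPM in duodenum and 813 to 988 CPM in pancreas, a sum carried by Lyz2 at 205 to 271 TPM in duodenum and 332 to 805 TPM in the other 8 libraries. The list did not move as 1. Csf1r, like Lyz2, was lower in each duodenum library (1.37 to 2.74 TPM in duodenum and 3.43 to 9.02 TPM in the other 8 libraries), while Adgre1 was higher in each of them (2.79 to 4.88 TPM in duodenum and 0.582 to 2.01 TPM in the other 8 libraries), as Cybb was. Ly6c2 overlapped, at 15.2 to 50.02 TPM in duodenum and 4.3 to 25.1 TPM in the other 8 libraries, and Clec4f, Cd5l, Vsig4 and Fcgr1 were under 1 TPM in all 12 libraries. Of the 7 cDC2 markers, Cd209a, Cd209d, Irf4 and Sirpa were higher in every duodenum library than in any other, and Itgam, Mgl2 and Ltb4r2 overlapped and had their highest mean in pancreas. Their part in the Cybb difference was not tested.

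Wdfy4 and Sec22b, which act in cross-presentation by cDC1, were not called by edgeR with TMM scaling of all 12 libraries. Wdfy4, a BEACH-domain protein that cDC1 need to cross-present cell-associated antigen, was measured at 113, 112, 103 and 102 TPM in liver libraries 1 to 4, 95.9, 82.8, 94.9 and 86.9 TPM in duodenum and 94.7, 95.4, 91.4 and 94.3 TPM in pancreas. Its differences from duodenum were 0.09 ± 0.10 (SE, adjusted p = 0.755) and -0.01 ± 0.10 (SE, adjusted p = 0.974), with pancreas and duodenum overlapping. Liver was above duodenum in every library, and Wdfy4 was called as higher in liver with library totals (0.25, edgeR adjusted p = 0.0164). Sec22b, a SNARE of ER-to-phagosome traffic, ranged over 31.5 to 36.6 TPM in liver, 32.8 to 42.3 in duodenum and 25.7 to 32.04 in pancreas, and its differences were -0.33 ± 0.15 (SE, adjusted p = 0.24) and -0.42 ± 0.15 (SE, adjusted p = 0.118). Each pancreas library was below each duodenum library. Some alternatives called Sec22b as lower, among them edgeR without duodenum 2, in liver (-0.49, adjusted p = 0.0332) and pancreas (-0.58, adjusted p = 0.0137). Among 21 other genes of phagosome traffic, 1 was lower in liver (Syk, -0.64 ± 0.17, adjusted p = 0.0324) and 1 higher in pancreas than in duodenum (Rab34, 0.70 ± 0.20, adjusted p = 0.0472, named after its values were seen). Each is 4.76% of the list, beside 3.95% of all genes tested called as lower in liver and 3.76% as higher in pancreas. With a mean of at least 10 TPM these were 15.0% and 8.22%, so both counts are near or below the background.

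**Figure D4:**
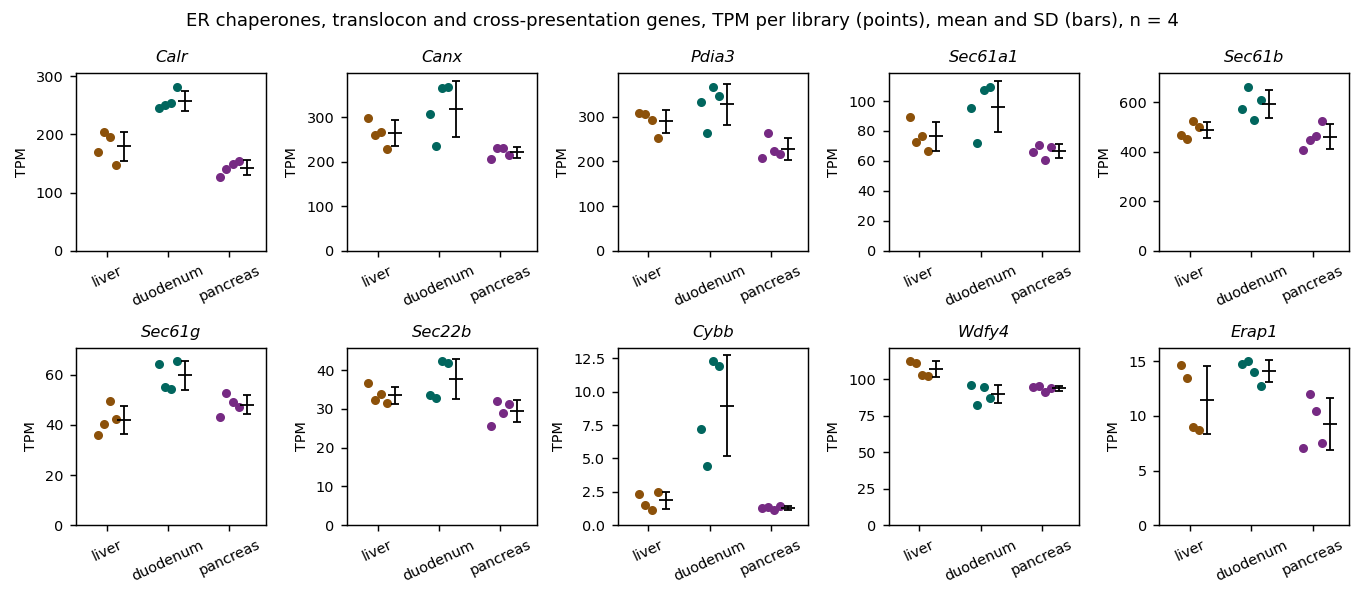
TPM of ER chaperones, translocon subunits and genes of trimming and cross-presentation in each library (points) by tissue, with mean and SD (bars, n = 4), each panel on its own axis from 0. Calr, Sec61b, Sec61g and Cybb are higher in each duodenum library than in any liver or pancreas library, and Wdfy4 stays between 82.8 and 113 TPM in all 12.

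None of the 31 genes was called between liver and pancreas by edgeR, where 1.11% of all genes tested were called, 0.426% as higher in liver and 0.681% as higher in pancreas. Among genes with a mean of at least 10 TPM the share was 3.32%, with 1.13% and 2.19% by direction. Of the 31 genes, 3 had an unadjusted p under 0.05, and DESeq2 called 0. In TPM, 9 of the 31 genes were higher in every liver than in every pancreas library and 0 the reverse, where 4.76% and 2.57% of all genes tested did so. They were H2-K1, H2-D1, Tap1, Tap2, Tapbpl, Psmb9, Psmb10, Psme1 and Wdfy4, and the largest of their log2 differences was 0.34 ± 0.15 (SE, adjusted p = 0.50) for Tapbpl. With scaling by library totals, Psme1, Tap2 and H2-K1 were called higher in liver, and limma on log2 TPM called Psme1 and H2-K1. The median log2 difference of the 31 genes was 0.18, beside 0.01 over all genes tested.

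**Figure D5:**
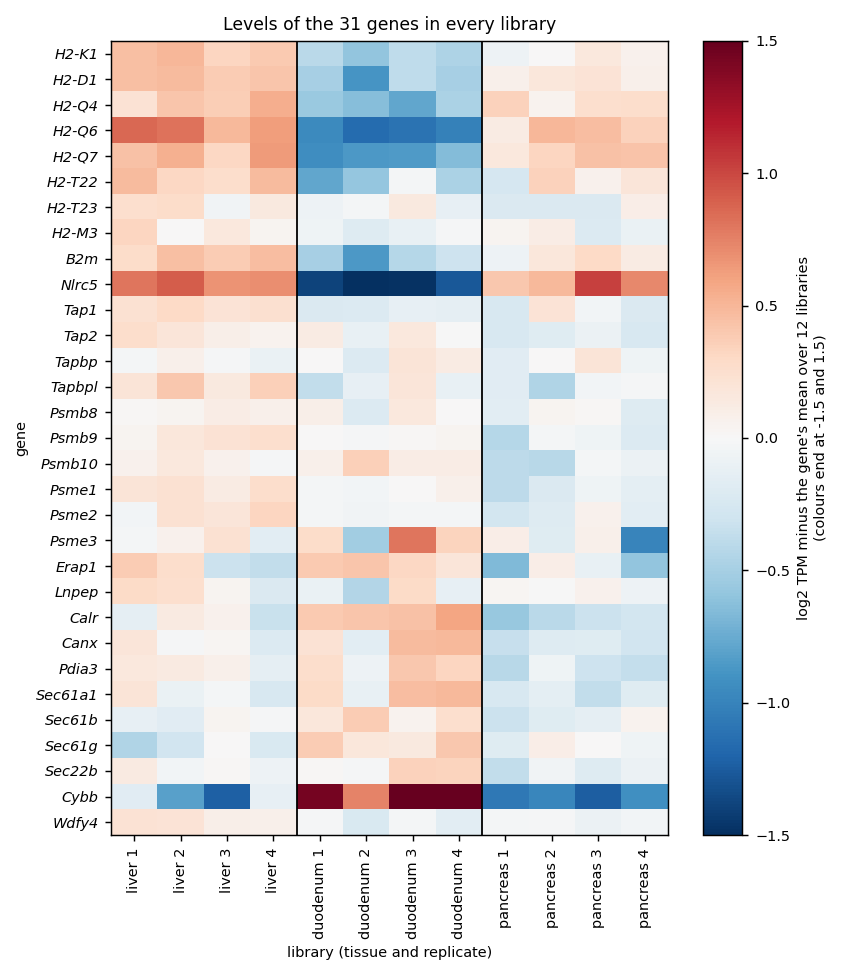
Level of each of the 31 genes (rows) in the 12 libraries (columns), as log2 TPM minus the gene's mean over all libraries; red is above and blue below that mean, and colours end at -1.5 and 1.5. The heavy chains H2-K1 to H2-Q7, B2m and Nlrc5 are blue in the 4 duodenum libraries, where Cybb and Calr are red. The transport, loading and proteasome genes lie between -0.455 and 0.403 except Psme3, which spans -0.994 to 0.807.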

How the data were processed

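PolyA RNA of sorted DCs was measured in 12 bulk libraries, 4 from each of 3 tissues named in the sample titles. Single-cell data that the series design mentions are not analysed here. Reads were quantified with kallisto for build GRCm39, per the submitters' processing notes. No source used here gives its version, the annotation or the strandedness. The authors deposited a table of estimated counts and a table of TPM, a unit scaled by gene length and depth, each with 55401 genes. The estimated counts are proportional to TPM within each gene once libraries are scaled, so both tables hold the same relative levels. The TPM file also had 3 empty columns without a name, and 0 columns of values lacked a sample.

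Estimated counts were rounded and tested with edgeR 4.0.16 (R 4.3.3) after filterByExpr (minimum count 10; 44624 genes), with TMM scaling and 1 robust quasi-likelihood fit of all 12 libraries without a block. Adjusted p is Benjamini-Hochberg over all genes tested, with 0.05 as the threshold, and SE is the absolute log2 difference over the square root of F. Alternatives used DESeq2 1.42.0 and limma 3.58.1. The fits were tested on simulated data, drawn as counts with known changes. Replicate numbers do not pair libraries. Pairs of libraries of a tissue differed by a chi-square per degree of freedom of 80.1 to 425, so none was a copy of another. Because the estimated counts are rescaled TPM, this value does not measure counting noise.

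All 31 genes are named, and of each further list up to 4 called genes with the largest difference and at least 10 CPM in the higher tissue, plus Psmb5, Psmb6, Psmb7, the RFX genes, Irf1 and Irf2 always; a few genes that this rule or a list would name are not reported here. Members and lists were chosen with earlier results of these data known. Promoters came from RefSeq tables of GRCm38.p6, another build than that of the files, and shared 31-base stretches from GENCODE transcripts of the GRCm38 build.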

Additional observations from a re-analysis of the deposited data

Results flagged for a closer look

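In 102 groups of 4 libraries (the 31 genes and 3 ratios in each tissue), a library was compared with the others of its tissue, and 2 stood apart by Dixon's 95% critical value, where chance gives about 1 in 20. H2-T23 was at 272.694 TPM in pancreas 4, beside 219.117 to 220.065 TPM in the other pancreas libraries. Psmb10 was at 128.041 TPM in duodenum 2, beside 105.369 to 108.152 TPM in the other duodenum libraries. Neither gene was called in any comparison.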

How the results depend on the processing

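Over 24 alternative settings, 2232 log2 differences of single genes were compared with their main values; 2076 kept their side of the threshold, 85 lost a call and 71 gained one. No called difference changed direction, and 142 changes of sign occurred in differences called in neither setting. The calls of Nlrc5, H2-Q6, H2-Q7, Calr and Cybb against duodenum, and of H2-K1, H2-D1 and H2-Q4 in liver, held throughout. The median log2 difference of all genes between liver and duodenum was 0.101, and became 0.019 with DESeq2 size factors and 0.246 with library totals, so differences of about 0.1 to 0.2 rest on the scaling; with these, 1078 and 1976, and 2642 and 1520, of all genes were called as higher in liver and as higher in duodenum, in place of 1502 and 1763.

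Counts of called genes moved more. Between liver and duodenum, 11 genes were called and 17 without duodenum 2 and pancreas 1, and 9 to 15 without any 1 library. The 3 higher in duodenum became 5 with the DESeq2 test, 7 with a filter of 1 CPM in 4 libraries, 9 without duodenum 2 and pancreas 1, and 2 to 8 without any 1 library (8 without duodenum 2). Between pancreas and duodenum, 12 became 19 with the 1 CPM filter, 7 with a fit of these tissues only, 6 without liver 2, pancreas 3 and pancreas 4, and 7 to 16 without any 1 library (7 without duodenum 1). The 7 higher in pancreas became 4 with DESeq2 size factors, 3 without liver 2, pancreas 3 and pancreas 4, and 4 to 7 without any 1 library (4 without pancreas 3). The 5 higher in duodenum became 9 with the DESeq2 test, 11 with the 1 CPM filter, 2 with a fit of these tissues only, 3 without liver 2, pancreas 3 and pancreas 4, and 2 to 11 without any 1 library (11 without duodenum 2). Between liver and pancreas, 0 became 3 with library totals, all higher in liver, and 2 with limma on log2(TPM + 1) or log2(TPM + 0.1). The cause of these changes was not tested. Of the 9 comparisons of the 3 ratios, 7 passed under the main and both alternative scales; without 1 library, or with pairs, the exact test cannot reach the threshold.

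With the replicate number as a block, 11 genes were called between liver and duodenum and 9 between pancreas and duodenum, of which 3 were higher in duodenum in place of 5. Same-numbered libraries correlated by -0.041 to 0.092 after removal of tissue means, 0 of 12 pairs exceeded 0.1, and 3 of 12 libraries were closest to their own number, so the number is not a pairing in these data. With 4 pooled libraries a tissue, differences of 0.5 or less, such as those of Psmb10 or Sec61b, may be missed. How often cannot be read from the simulated data given above, whose recoveries are not the power of the real tests.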

Other observations

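Other proteasome genes were called in the direction of Psmb5 and Psmb7. Of the 11 structural subunits of the 20S core, 4 were lower in liver than in duodenum and 4 in pancreas, and none was higher. Psmb2 differed by -0.68 ± 0.14 (SE, adjusted p = 0.00923) in liver and -0.72 ± 0.14 (SE, adjusted p = 0.00573) in pancreas, and Psmb4 by -0.66 ± 0.13 (SE, adjusted p = 0.00493) and -0.52 ± 0.13 (SE, adjusted p = 0.0188). Of 18 subunits of the 19S regulator, which unfolds substrates, 4 were lower in liver and 7 in pancreas, and none was higher, with Psmc1 at -0.61 ± 0.13 (SE, adjusted p = 0.0104) and -0.54 ± 0.13 (SE, adjusted p = 0.0191). The medians were -0.45 and -0.47 for the core and -0.43 and -0.49 for the regulator in liver and pancreas, beside 0.10 and 0.09 over all genes tested. Among all genes with a mean of at least 10 TPM, 15.0% were called as lower in liver and 13.9% as lower in pancreas than in duodenum, beside 22.2% and 38.9% of the 18 and 36.4% and 36.4% of the 11, so the regulator's share in liver is near the background. Between liver and pancreas no gene of either list was called (edgeR), and the medians were 0.04 and 0.02.

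Cytosolic peptidases destroy or trim peptides before they reach TAP. Of 7 tested, Thop1 was lower in liver (-0.94 ± 0.17, adjusted p = 0.00372) and pancreas (-0.62 ± 0.17, adjusted p = 0.0401) than in duodenum, and Prep was lower in liver (-0.98 ± 0.20, adjusted p = 0.00873). None was higher. The lower genes were 28.6% of the list in liver and 14.3% in pancreas, beside 3.95% and 3.94% of all genes tested. With a mean of at least 10 TPM these were 15.0% and 13.9%, so the pancreas share is near that background. Nrdc, Ero1a and Ero1b were listed but are not analysed here. Plasma cell, B cell, plasmacytoid DC, cDC2 and immediate-early RNA, highest in the 4 duodenum libraries, moved with these genes too, and their part was not tested.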
